A study of Danio rerio with 5 samples.

Results

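The array of zebrafish exposed to a mixture of benzene, toluene and formaldehyde, the BTF mix, is described here against the range of the 4 other arrays of the study. The rule takes 1 array of 5 as the member, the one labelled with all 3 compounds. All fish were young adults of the AB wild-type line. Treatment lasted 24 h in every group, and the fish were held for 24 h without food. The compounds were made up in the vehicle DMSO, and the other groups are the DMSO control, benzene alone, toluene alone and formaldehyde alone. Each group had 1 Affymetrix array, so no value has a replicate error, no test was run and every difference is a description of these 5 arrays. The sources used here do not give the doses, the tissue, the number of fish behind an array or whether they were pooled, and the single label for sex names neither males nor females.

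Benzene and toluene are aromatic solvents that cytochrome P450 enzymes oxidise, and formaldehyde is a reactive aldehyde that alcohol and aldehyde dehydrogenases clear. In fish, growing oocytes store maternal RNA and make the proteins of the egg coat, while the liver makes the yolk precursors, the vitellogenins, under oestrogen. Bulk RNA of several tissues holds transcripts of many cell types, and in such samples fewer cells of a type and less RNA per cell cannot be told apart.

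Levels are the deposited log2 values, in which 1 unit is a 2-fold difference. A probe set was called apart when the mix lay at least 1 unit outside the range of the other 4 arrays. The distance is the number of units by which the mix lay outside that range, negative below it and positive above it, and 0 within it. After 115 control probe sets were set aside, 9716 of 15502 probe sets had a level of at least 7.02, the overall median, on 1 array or more, and these covered 6682 genes.

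The mix array was apart from the other 4 at about every other probe set past the filter. Of the 9716 probe sets, 2712 were apart below, or 27.9%, and 2257 apart above, or 23.2%. Another 2124 lay below the range and 1736 above it by less than 1 unit, and 887 lay within it. With each other array in the place of the mix, the same rule found 15 below and 16 above for DMSO, 14 and 9 for benzene, 4 and 3 for toluene, and 134 and 10 for formaldehyde. Those 4 counts use ranges that include the mix, so they are smaller than counts among 4 arrays alone would be. Against single arrays, the mix was at least 2-fold lower at 3201 probe sets and higher at 2573 for DMSO, and for the other 3 arrays at 3015 to 3115 and 2547 to 2576.

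Among genes, 2044 of 6682 were apart below, or 30.6%, and 1357 apart above, or 20.3%. These shares are the background against which the gene lists below are read. The median over all genes of the mix minus the mean of the other 4 arrays was -0.32. With no level filter, 23.5% of 8793 genes were apart below and 17.6% above, and the median was 0.0. A list median is always this same difference, the mix minus the mean of the other 4 arrays.

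**Figure D1:**
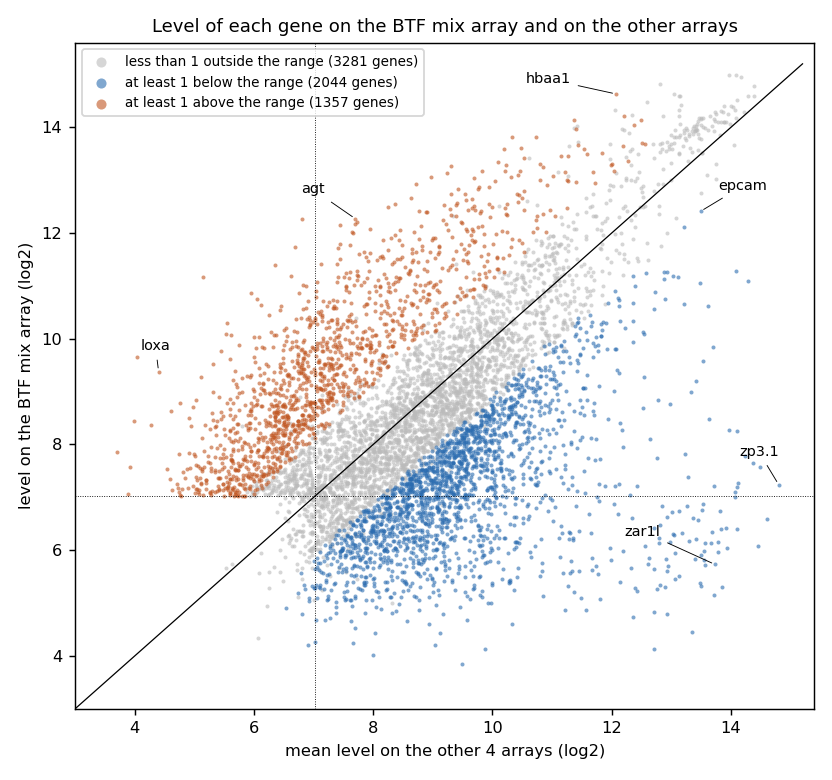
Level of each of the 6682 genes on the BTF mix array (vertical, log2) against its mean on the other 4 arrays (horizontal, log2), 1 point per gene, with the line of equal levels and dotted lines at 7.02. The 2044 genes apart below reach from the diagonal down to levels near 6 for genes that stand above 13 elsewhere, such as zar1l, and the 1357 apart above lie mostly at low to middle levels of the other arrays.

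From a level of 7 upwards, the share of probe sets apart below was larger at higher levels on the other 4 arrays. Those levels also enter the call, and less room is left below at low levels and above at high levels. The larger share at higher levels is therefore not read as a result. The probe sets apart below had a median mean level of 9.25 on the other 4 arrays and 6.91 with the mix, and the 4 arrays themselves spanned a median range of 0.32. The probe sets apart above went from a median of 6.75 to 8.98, and the 4 arrays spanned a median range of 0.44. The tail was longer below: 135 probe sets lay at least 6 units below the range, against 1 at least 6 units above it. The tails start from different levels on the other 4 arrays, and the part of the ends of the scale was not tested. With the mix, 1449 of the 2712 probe sets apart below, or 53.4%, had a level under that of the filter.

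Of the 100 genes with the highest mean on the other 4 arrays, 45 were apart below on the mix array, beside 30.6% of all genes. The egg coat gene zp3.1 was first among all genes on the other 4 arrays and ranked 4916 with the mix. Only 47 of those 100 genes were also among the 100 highest with the mix. Of the 100 highest with the mix, 9 were apart above, beside 20.3% of all genes. One of these 9 was hbaa1, an alpha globin of red blood cells, which ranked 293 on the other 4 arrays and 6 with the mix. Both sets of 100 genes were picked by their levels on arrays that also enter the call. Their shares apart depend on that choice and on the end of the scale, so they are not read as a result.

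**Figure D2:**
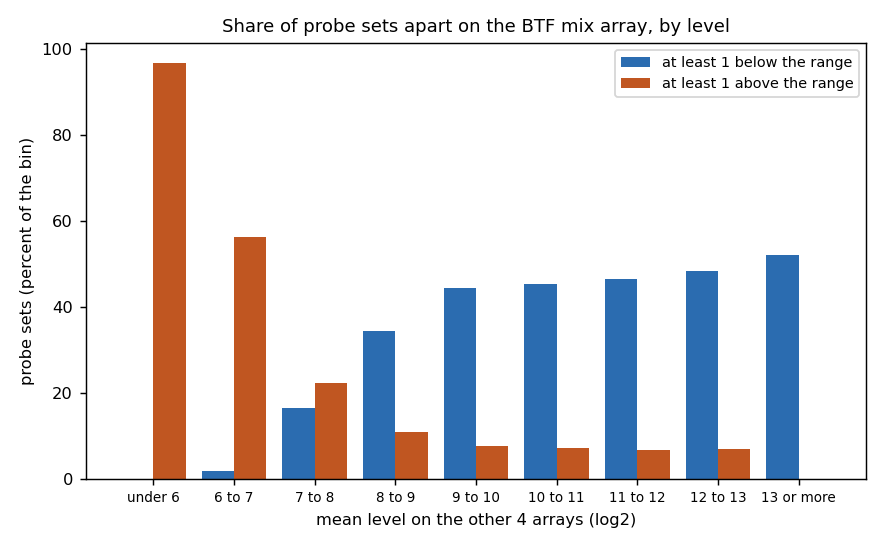
Percent of probe sets apart below (blue) and apart above (orange) on the mix array, in bins of the mean level on the other 4 arrays (log2). The share below was 16.5% at levels from 7 to 8 and 52% at 13 or more. The share above was 22.4% at 7 to 8 and 0% at 13 or more. Neither is read as a trend, because the binned levels also enter the call and the scale has ends.

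The share above was 96.7% under 6 and 56.2% from 6 to 7. In both bins under 7 the level filter raises that share, since a probe set with so low a mean enters through its value with the mix or through a higher value on another array, so the shares above in these bins are not to be read as a trend. In all, 1120 of the 2257 probe sets apart above, or 49.6%, were under the filter level on all 4 other arrays and so entered through the mix alone. For each list with a median of at least 1, the median with no filter is therefore given as well.

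Defining markers of cell types were set side by side to check what RNA each array held. The 6 measured oocyte markers, zar1, zar1l, zp3b, bmp15, buc and btg4, were all apart below, and their mean level was 12.99 to 13.11 on the other 4 arrays and 5.99 with the mix. The ovary follicle markers cyp19a1a and fshr were under the filter on every array, with a mean of 5.49 to 5.67 on the other 4 arrays and 5.67 with the mix. Of 5 testis somatic markers, gsdf was apart above, at 7.04 to 7.18 on the other 4 arrays and 8.39 with the mix, and the mean of the 5 was 5.52 to 5.59 on the other 4 arrays and 6.22 with the mix. None of 5 markers of male germ cells and sperm was apart, and their mean was 5.87 to 6.03 on the other 4 arrays and 6.63 with the mix.

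Markers of most other tissues had their highest mean with the mix. The 4 skin markers had means of 7.48 to 10.91 on the other 4 arrays and 12.77 with the mix. The 3 markers of red blood cells had means of 7.85 to 9.24 on the other 4 arrays and 11.18 with the mix, and the 3 of neutrophils and macrophages of 6.66 to 7.57 on the other 4 arrays and 9.82 with the mix. The 4 liver markers had means of 11.79 to 12.6 on the other 4 arrays and 13.43 with the mix, and the 4 of skeletal muscle of 12.55 to 13.59 on the other 4 arrays and 14.37 with the mix. The 4 exocrine pancreas markers had means of 12 with DMSO, 13.45 with benzene, 13.07 with toluene, 8.17 with formaldehyde and 14.06 with the mix, and 0 were apart. Among the other 4 arrays, means for skin, red blood cells, and neutrophils and macrophages were also lowest with formaldehyde. Those for liver and skeletal muscle were highest there. All of these markers of skin, red blood cells, and neutrophils and macrophages were apart above. Of the liver markers only 1, fgb, was apart above, and of the skeletal muscle markers 0. The part that this difference in marker levels has in the results below was not tested, and with 1 mix array the exposure and the fish or tissue on that array cannot be told apart.

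None of 9 spike-in probe sets for hybridisation and 12 for poly-A RNA was apart, and the farthest lay 0.76 outside the range. The level of the 3′ probe set minus that of the 5′ probe set, a sign of RNA integrity, ran from 0.43 to 0.58 for gapdh on the other 4 arrays and was 0.64 with the mix. For the muscle actin actc1b it ran from 5.63 to 6.02 and was 3.4 with the mix. The levels themselves differed more: the 3′ control probe set of gapdh had 8.68 to 10.02 on the other 4 arrays and 12.87 with the mix, its 5′ probe set had 8.26 to 9.49 and 12.23, and the 5′ probe set of actc1b had 7.7 to 8.64 and 11.52. Among the genes, the probe sets that stood for gapdh and actc1b lay at distances of 0.01 and 0.67, so neither gene was apart. Why the control probe sets differ from these, and the part of the control levels in the results, were not tested.

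The genes of the egg coat lay farthest below as a group. The zona pellucida proteins they encode are secreted by the zebrafish oocyte and form the coat around the egg. Of 15 such genes past the filter, 15 were apart below and 0 above, with a median of -7.12. The coat gene zpax1 had levels of 14.27 with DMSO, 14.04 with benzene, 14.04 with toluene, 14.04 with formaldehyde and 6.4 with the mix. The gene zpax4 had 13.74 to 13.89 on the other 4 arrays and 6.15 with the mix. The level of zp3b was 13.69 with DMSO, 13.56 with benzene, 13.53 with toluene, 13.46 with formaldehyde and 6.13 with the mix. Each of these was near the top of the scale on the other 4 arrays and under the filter level with the mix. The family members zp3f.1, zp3c and zp3a.1 lay at distances of -7.44, -7.32 and -7.3. The smallest distance was -2.85, for zpd, singled out after its value was seen. These genes are alike in sequence, and signal shared between their probe sets cannot be told apart here.

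Maternal factors, whose RNA the oocyte stores for the early embryo, followed closely. Of 35 genes, 32 were apart below and 1 above, and the median was -6.28. The farthest below of all genes with a usual name was zar1l, a relative of the egg-to-embryo factor zar1, with levels of 13.72 with DMSO, 13.73 with benzene, 13.72 with toluene, 13.76 with formaldehyde and 5.73 with the mix. The 4 other arrays agreed to 0.04 for this gene. The CCCH zinc finger gene cth1 had levels of 13.08 to 13.16 on the other 4 arrays and 5.52 with the mix. For gtf3ab, named for transcription factor IIIA, levels were 12.84 to 13.01 on the other 4 arrays and 5.3 with the mix. The linker histone of the egg, h1m, had 13.74 to 13.96 on the other 4 arrays and 6.4 with the mix. The exception was ybx1, a Y-box protein that binds RNA in many cell types, with levels of 12 with DMSO, 12.15 with benzene, 12.22 with toluene, 12.38 with formaldehyde and 13.64 with the mix. It was apart above, at 1.25.

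Germ cell genes that bind RNA or carry Tudor domains guard the germ line and its granules. All 16 past the filter were apart below, with a median of -3.01. The Balbiani body organiser buc had levels of 12.9 with DMSO, 12.4 with benzene, 12.56 with toluene, 12.57 with formaldehyde and 5.74 with the mix. The level of nanos3, a translational repressor of germ cells, was 10.75 to 11.66 on the other 4 arrays and 5.57 with the mix. Shorter distances were seen for tdrd5 at -3.9, dazl at -3.87 and asz1 at -3.81. The meiosis list held only 2 genes past the filter: psmc3ip, which acts in strand exchange, lay at -3.33 and the synaptonemal complex gene sycp1 lay within the range.

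Yolk precursors were also low with the mix. All 4 genes of the list past the filter were apart below, with a median of -5.47, or -3.51 over all 6 on the array. The vitellogenin vtg4 had levels of 11.52 with DMSO, 11.88 with benzene, 12.69 with toluene, 9.85 with formaldehyde and 5.1 with the mix. The level of vtg3 was 7.93 to 10.54 on the other 4 arrays and 5.07 with the mix. Both were lower with formaldehyde than on the other 3 arrays without the mix, and lower again with the mix. The protease-like nothepsin gene nots had levels of 7.21 with DMSO, 7.39 with benzene, 8.78 with toluene, 8.01 with formaldehyde and 5.4 with the mix.

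Of the steroid-making genes listed, the enzymes that were apart lay below. Of 6 genes on the list of testis somatic cells and steroid synthesis, 3 were apart below, all of them steroid enzymes. The 2 apart above were star and the testis somatic marker gsdf, at 1.21. The remaining gene, cyp11c1, lay at 0.67 and was not apart. The side-chain cleavage gene cyp11a1.1, the first step from cholesterol, had levels of 10.42 with DMSO, 10.31 with benzene, 10.09 with toluene, 10.3 with formaldehyde and 5.38 with the mix. The level of cyp17a1, the enzyme that leads to sex steroids, was 10.63 with DMSO, 10.1 with benzene, 10.21 with toluene, 10.74 with formaldehyde and 5.67 with the mix. A further enzyme of the pathway, hsd3b2, lay at -2.97. In contrast star, which carries cholesterol into mitochondria, had levels of 6.3 with DMSO, 6.89 with benzene, 7.11 with toluene, 6.13 with formaldehyde and 9.8 with the mix. The median of this list was -1.23, but 0.42 over all 14 of its genes on the array. On the ovary follicle list, which shares cyp11a1.1, star and gsdf with it, bmp15 lay at -5.65 while the prostaglandin synthase ptgs2a lay at 2.56 and the oestrogen receptor esr2b at 1.56. Its median, -0.05, was near 0 and changed sign under 5 alternatives.

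The list for DNA replication and mitosis was the largest that lay below. Of 107 genes, 91 were apart below and 2 above, with a median of -2.46. The replication licensing inhibitor gmnn had levels of 12.01 with DMSO, 12.07 with benzene, 12.07 with toluene, 12.4 with formaldehyde and 5.4 with the mix. The mitotic cyclin ccnb2 had 12.82 to 13.28 on the other 4 arrays and 6.28 with the mix. The level of ccnb1 was 14.01 with DMSO, 14 with benzene, 14.12 with toluene, 14.25 with formaldehyde and 8.26 with the mix. Cyclin B is also stored in the oocyte, and both cyclins are on the maternal list too. Also far below were the survivin birc5b at -6.1 and the A-type cyclin ccna1 at -5.87. Apart above were the replication helicase subunit mcm3, with levels of 5.99 to 6.66 on the other 4 arrays and 8.11 with the mix, and ccnd1, the cyclin of early G1, with 6.49 to 7.36 on the other 4 arrays and 8.78 with the mix.

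Of 48 DNA damage and repair genes, 26 were apart below and 4 above, with a median of -1.34. The checkpoint kinase chek2 had levels of 10.16 with DMSO, 10.25 with benzene, 10.28 with toluene, 10.61 with formaldehyde and 7.34 with the mix, and chek1 had 8.68 to 9.12 on the other 4 arrays and 6.07 with the mix. Others far below were fancg of the Fanconi pathway at -3.01, the uracil glycosylase unga at -2.98 and the exonuclease exo1 at -2.72. The 4 genes apart above were all of the gadd45 family, stress-response genes that slow the cell cycle. Of these gadd45ba had levels of 7.09 with DMSO, 8.3 with benzene, 8.61 with toluene, 6.92 with formaldehyde and 11.11 with the mix, gadd45aa lay at 2.48 and gadd45ab at 1.38.

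Of 36 genes of histones and chromatin, 16 were apart below and 6 above, with a median of -1.0. The histone RNA-binding gene slbp2 lay at -5.97, the nucleoplasmin npm2b at -4.94, the histone chaperone nasp at -4.12 and the DNA methyltransferase dnmt1 at -3.73. On the other side were the linker histone h1-10 at 2.52 and the chromatin proteins hmgn6 at 2.2 and hmgb3a at 2.16. Of 99 splicing genes, 37 were apart below, near the background share, and 3 above, under it, with a median of -0.9. The farthest was hnrnpc, which binds nascent RNA, at -2.83, followed by the small nuclear ribonucleoprotein gene snrpb2 at -2.65 and hnrnpabb at -2.5. The list of tubulins, kinesins and dyneins had 11 of 34 below, near the background share, and 3 above, under it. The alpha tubulin tuba4l had levels of 13.64 to 13.9 on the other 4 arrays and 7.22 with the mix.

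Of 41 genes for folding and stress of the endoplasmic reticulum, 15 were apart below, near the background share, and 4 above, under it. The median was -0.82. The chaperone hspa5, also known as BiP, had levels of 12.85 with DMSO, 12.88 with benzene, 12.83 with toluene, 13.03 with formaldehyde and 10.76 with the mix. The asparagine synthetase asns had 9.4 to 9.53 on the other 4 arrays and 5.65 with the mix. The disulphide isomerase pdia4 lay at -2.81 and the chaperone hsp90b1 at -2.14. The stress factor atf3 was apart above, with levels of 6.07 to 6.67 on the other 4 arrays and 8.45 with the mix, as were the co-chaperone dnajc3b at 1.86 and atf4b, a further factor of the stress response, at 1.25.

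Some of the genes farthest below belonged to none of these groups. The alpha spectrin gene sptan1 had levels of 13.65 with DMSO, 13.66 with benzene, 13.59 with toluene, 13.34 with formaldehyde and 5.72 with the mix on its brighter probe set, but on its other probe set the mix lay 0.32 above the range. The chitinase chia.4, placed on the intestine list for its family, had levels of 12.23 to 12.7 on the other 4 arrays and 4.73 with the mix. For qdprb.4, of the dihydropteridine reductase family, levels were 13.27 to 13.66 on the other 4 arrays and 5.84 with the mix. Both chia.4 and qdprb.4, like the brighter probe set of sptan1, were high on the other 4 arrays and under the filter level with the mix.

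**Figure D3:**
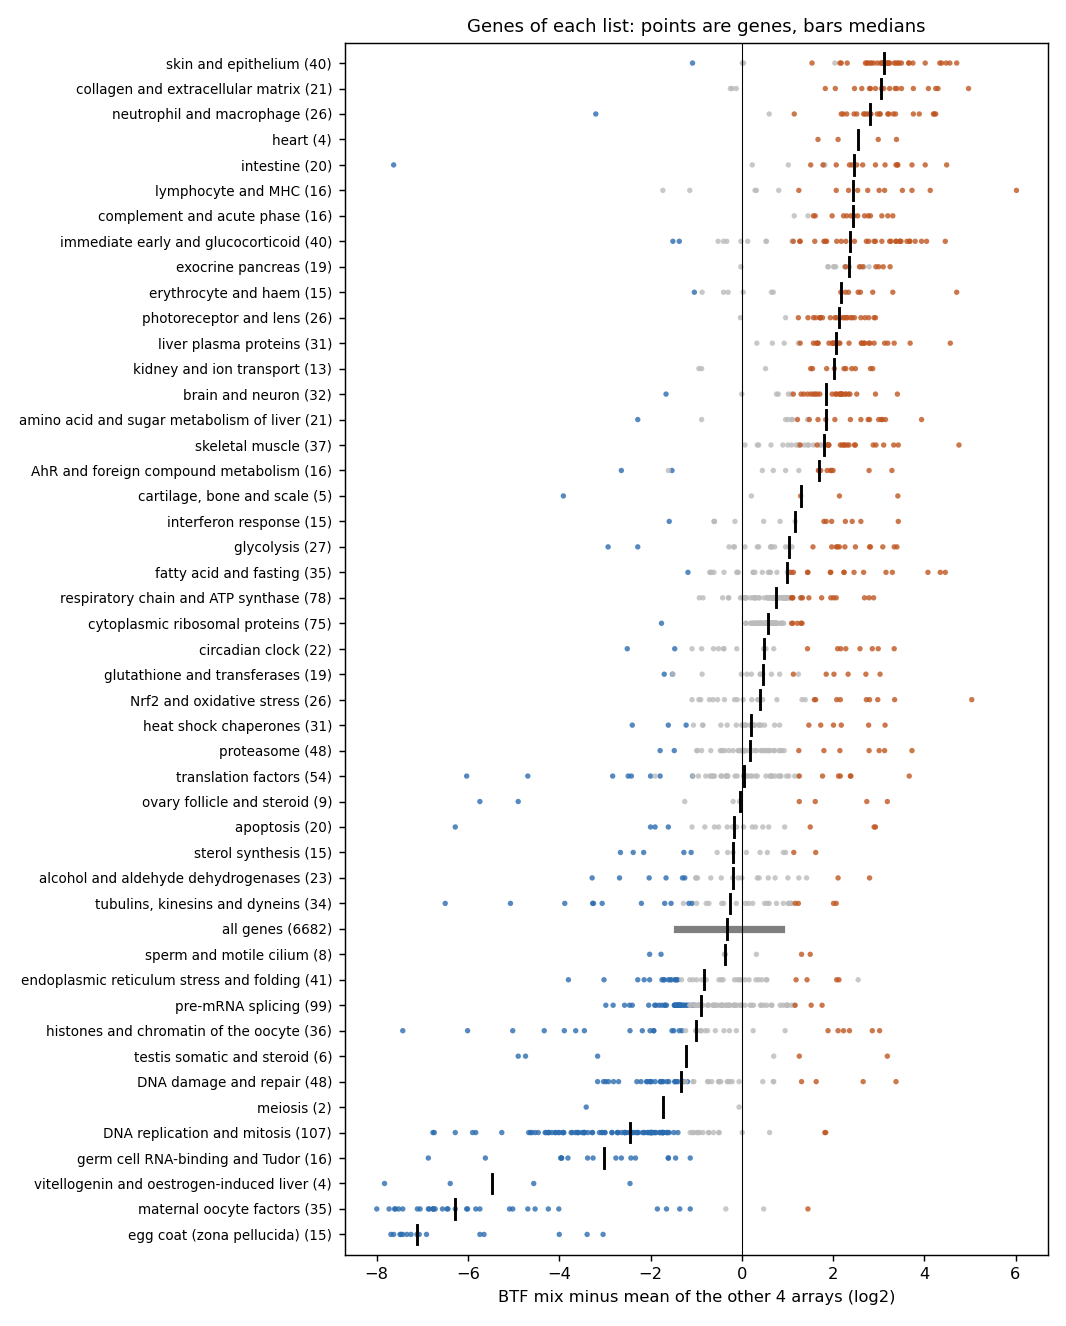
Mix minus the mean of the other 4 arrays (log2, horizontal) for each gene past the filter, by list, with the number of genes in parentheses. Points are blue when apart below, orange when apart above and grey otherwise, black bars are medians, and the thick grey bar spans the quartiles of all genes; list medians run from -7.12 for the egg coat to 3.11 for skin and epithelium.

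Skin and epithelial genes had the highest list median. Of 46 genes on the array, 40 passed the filter, 36 were apart above and 1 below, and the median was 3.11, or 3.08 with no filter. The membrane-binding annexin anxa2a had levels of 6.89 with DMSO, 8.3 with benzene, 8.23 with toluene, 6.32 with formaldehyde and 12.15 with the mix. Its relative anxa1c lay at 3.75, the calpain protease capn9 at 3.55, the tight junction gene cldnb at 3.41 and the envoplakin evpla at 3.25. For many of these genes the other 4 arrays differed too: anxa2a was lowest with formaldehyde and highest with benzene. The adhesion gene epcam was apart below by a small margin, with levels of 13.42 with DMSO, 13.54 with benzene, 13.48 with toluene, 13.52 with formaldehyde and 12.41 with the mix. The gene lye, a Ly6 family member of the epidermis, was among the 15 farthest above, with levels of 6.23 with DMSO, 7.7 with benzene, 7.01 with toluene, 5.81 with formaldehyde and 11.74 with the mix.

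Genes of the extracellular matrix and its turnover were high with the mix. Of 21 past the filter, 18 were apart above and 0 below, with a median of 3.06, or 2.8 over all 27 on the array. The farthest above of all genes with a usual name was loxa, the lysyl oxidase that crosslinks collagen, with levels of 4.14 with DMSO, 4.58 with benzene, 4.53 with toluene, 4.35 with formaldehyde and 9.38 with the mix. The protease inhibitor timp2b had 4.14 to 4.36 on the other 4 arrays and 8.36 with the mix. The matrix protease mmp9 had levels of 7.41 with DMSO, 7.68 with benzene, 7.09 with toluene, 7.48 with formaldehyde and 11.17 with the mix. The collagen col10a1a lay at 3.62 and the collagenase mmp13a at 3.43. On the short list for cartilage, bone and scale, 3 of 5 genes were apart above and 1 below, with a median of 1.29, or 0.22 over all 14 on the array. Of these spp1, which encodes osteopontin, had 5.67 to 6.17 on the other 4 arrays and 9.3 with the mix. There phex, a peptidase of bone mineral control, was apart below, at -3.78, with distances from -4.26 to -0.8 over its 4 probe sets.

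Immune genes formed 4 lists, all with medians above 0. Of 26 neutrophil and macrophage genes, 23 were apart above and 1 below, with a median of 2.82, or 2.81 with no filter. The lysozyme lyz, an enzyme of neutrophil granules, had levels of 8.79 with DMSO, 9.05 with benzene, 9.49 with toluene, 7.54 with formaldehyde and 12.92 with the mix. The chemokine receptor cxcr4b had 4.69 to 6.03 on the other 4 arrays and 9.53 with the mix. The scavenger receptor marco lay at 3.14. The cathepsin ctss2.1 was apart below, with levels of 14.21 to 14.41 on the other 4 arrays and 11.09 with the mix, and it was the ninth most abundant gene on the other 4 arrays.

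Of 16 lymphocyte and MHC genes, 11 were apart above and 0 below, with a median of 2.44, or 1.68 with no filter. Without the DMSO array in the range 1 was below. The immunoproteasome subunit psmb8a, which cuts peptides for display on MHC class I, had levels of 6.79 with DMSO, 5.98 with benzene, 6.47 with toluene, 6.13 with formaldehyde and 10.07 with the mix. A further such subunit, psmb13a, lay at 3.27, and psmb9a at 2.49. The chemokine ccl25b had 6.4 to 9.13 on the other 4 arrays and 12.08 with the mix. The phosphatase of white blood cells, ptprc, lay at 2.55. Among genes of lymphocyte lineages on the list, gata3 lay at 1.82, while pax5 at 0.19 and trac at 0.63 were not apart. The list also holds polr1g, named for a subunit of RNA polymerase I, at -0.97. The 1 measured lymphocyte marker, rag1, was under the filter, with 5.75 to 6.1 on the other 4 arrays and 6.05 with the mix. The MHC class I gene mhc1ufa, named here after its values were seen, had levels of 9.02 with DMSO, 3.83 with benzene, 3.72 with toluene, 3.99 with formaldehyde and 11.17 with the mix. It was high with DMSO and with the mix and low with each single compound.

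Complement marks microbes for lysis. The list of complement and acute phase genes had 14 of 16 apart above and 0 below, with a median of 2.43, or 2.3 with no filter. The terminal component gene c6.2 had levels of 7.14 to 7.61 on the other 4 arrays and 10.71 with the mix. The chain c1qc of the first component lay at 2.71, c4b at 2.55, and the haemoglobin scavenger hp at 2.42. The factor B gene bfb, among the 15 farthest above, had levels of 5.57 with DMSO, 5.85 with benzene, 5.72 with toluene, 5.87 with formaldehyde and 9.89 with the mix. Of 15 interferon response genes, 7 were apart above and 1 below, with a median of 1.17, or 1.0 over all 18 on the array. The TRIM family genes ftr82 and ftr83 lay at 2.47 and 2.35, and the cytokine signal inhibitor socs3a at 2.39. Of the same families on the list, ftr81 and socs3b lay within the range and socs1a lay at -0.56, so these were not apart. The factor irf1a was apart below, at -1.26, and its duplicate irf1b apart above, at 1.13.

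Liver genes other than the vitellogenins were high with the mix. Of 31 plasma protein genes, 27 were apart above and 0 below, with a median of 2.07, or 2.06 over all 32 on the array. Angiotensinogen, agt, had levels of 7.61 with DMSO, 7.84 with benzene, 7.32 with toluene, 8.03 with formaldehyde and 12.27 with the mix. The haem-binding hemopexin hpxb had 5.93 to 6.74 on the other 4 arrays and 10.21 with the mix. The apolipoprotein apoa4a lay at 2.68 and the fibrinogen chain fgg at 2.64. For amino acid and sugar metabolism of the liver, 14 of 21 genes were apart above and 1 below, with a median of 1.84, or 1.67 over all 23 on the array. The gluconeogenic genes pck2, g6pc1a.2 and pck1 lay at 3.01, 2.98 and 2.54. The glycogen phosphorylase pygl was apart below, at -2.2.

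Digestive genes were high on some of the other arrays as well. For the exocrine pancreas, 7 of 19 genes were apart above and 0 below, with a median of 2.36, or 2.33 over all 20 on the array. The carboxypeptidase cpa4 had levels of 8.07 with DMSO, 8.73 with benzene, 8.46 with toluene, 6.33 with formaldehyde and 11.15 with the mix. The phospholipase pla2g1b lay at 1.86 and the elastase cela1.1 at 1.52. Without the benzene array in the range 13 pancreas genes were apart above, and against DMSO alone 18. The median was 1.52 without the formaldehyde array, where these genes were lowest. Of 20 intestine genes, 15 were apart above and 1 below, with a median of 2.46, or 2.41 over all 21 on the array. The disulphide isomerase of mucus-making cells, agr2, had levels of 7.36 with DMSO, 8.14 with benzene, 8.28 with toluene, 6.97 with formaldehyde and 12.17 with the mix. The chitinase chia.6 lay at 3.27, opposite to chia.4 of the same family. The peptide transporter slc15a1b lay at 2.63 and the fatty acid-binding gene fabp1b.1 at 2.59. For kidney and ion transport, 10 of 13 genes were apart above and 0 below, led by the sulphate transporter slc13a1 at 2.37 and the sodium pump subunit atp1b1b at 2.33, and the median was 2.03, or 1.55 over all 17 on the array.

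Of 15 genes of red blood cells and haem, 8 were apart above and 1 below. The beta globin hbba2 had levels of 6.26 with DMSO, 6.42 with benzene, 5.93 with toluene, 5.59 with formaldehyde and 10.76 with the mix. The alpha globin hbaa1 had 11.46 to 12.66 on the other 4 arrays and 14.63 with the mix. The nucleotidase nt5c2l1 lay at 3.14 and alas2, the first enzyme of haem synthesis in red cells, at 2.1. The last enzyme of that pathway, fech, lay just past the threshold below, at -1.001. The list median was 2.17, or 0.7 over all 20 genes on the array.

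Muscle genes were high with the mix. Of 37 skeletal muscle genes, 20 were apart above and 0 below, with a median of 1.8, or 1.72 over all 40 on the array. Without the formaldehyde array in the range 31 were apart above. The ubiquitin ligase trim63a, known for muscle protein breakdown in mammals, had levels of 5.16 with DMSO, 5.3 with benzene, 5.54 with toluene, 6.16 with formaldehyde and 10.3 with the mix. The calcium pump atp2a1 had 8.58 to 8.76 on the other 4 arrays and 12.01 with the mix. Myoglobin, mb, lay at 2.8. All 4 heart genes past the filter were apart above, of 10 on the array, led by the cardiac myosin light chain myl7 with 7.58 with DMSO, 7.91 with benzene, 8.27 with toluene, 6.43 with formaldehyde and 10.93 with the mix. The heart median was 2.55, or 0.79 with no filter.

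Of 32 brain and neuron genes, 25 were apart above and 1 below, with a median of 1.85, or 1.44 over all 45 on the array. The secreted neuronal gene olfm1b had levels of 8.16 with DMSO, 8.36 with benzene, 7.53 with toluene, 8.57 with formaldehyde and 11.57 with the mix. The synaptic gene cplx2a lay at 2.83, and mbpa, the myelin basic protein, had 9.38 to 9.71 on the other 4 arrays and 12.07 with the mix. The creatine kinase ckbb was apart below, at -1.48. For photoreceptors and the lens, 24 of 26 genes were apart above and 0 below, with a median of 2.12, or 1.77 over all 37 on the array, of which 28 were apart above. The lens crystallin cryaa had levels of 6.1 to 6.54 on the other 4 arrays and 9.22 with the mix, the cone phosphodiesterase pde6c lay at 2.63 and the rod transducin gnat1 at 2.17.

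**Figure D4:**
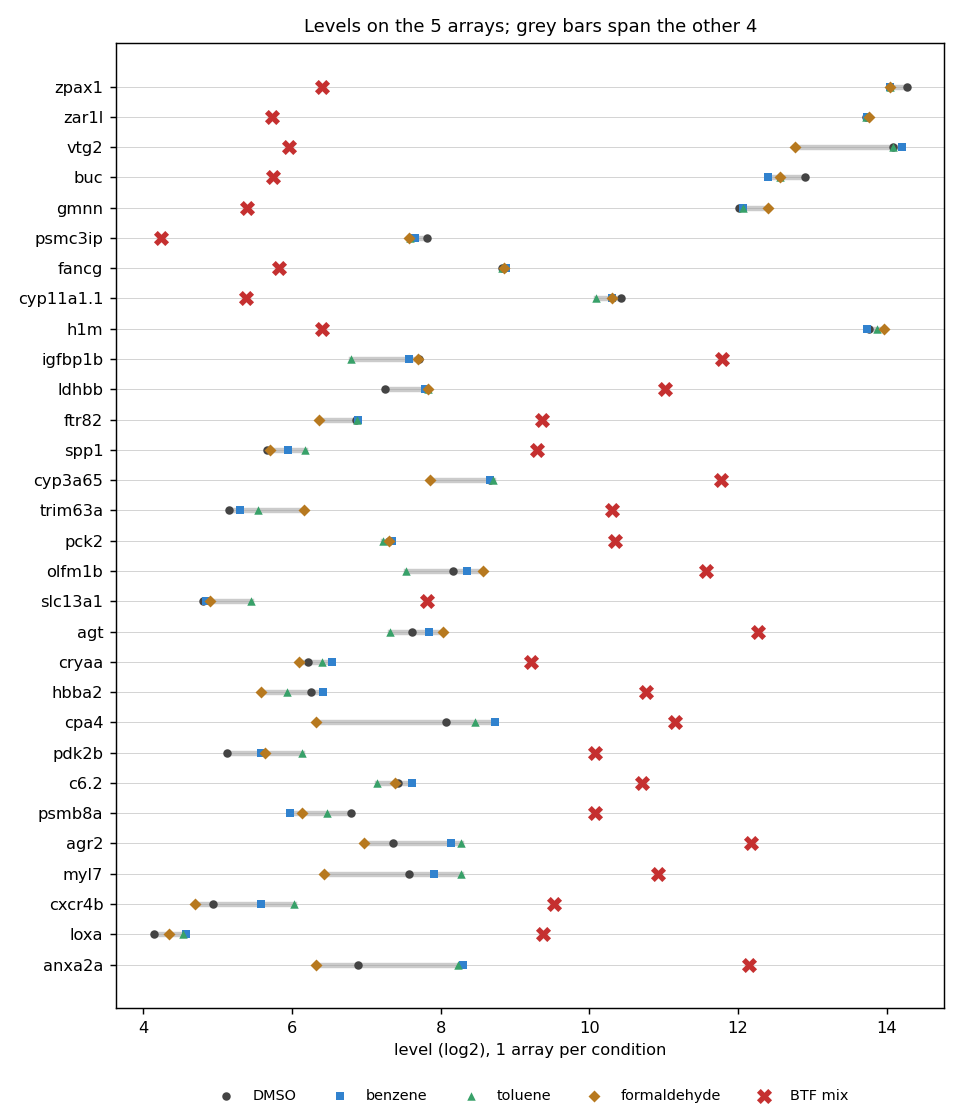
Level (log2) on each of the 5 arrays for 1 gene from each of the 30 lists with a median of at least 1 either way: the member farthest outside in the list's direction, not yet plotted. Grey bars span the other 4 arrays; the mix (red cross) lies to the left of the bar in the first 9 genes and to the right in the other 21.

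Genes of early transcriptional responses and glucocorticoid action were largely above. Of 40 past the filter, 29 were apart above and 2 below, with a median of 2.38, or 2.13 over all 46 on the array. The pyruvate dehydrogenase kinase pdk2b had levels of 5.13 with DMSO, 5.58 with benzene, 6.13 with toluene, 5.64 with formaldehyde and 10.08 with the mix. The transcription factor cebpb had 7.11 with DMSO, 7.73 with benzene, 7.73 with toluene, 7.01 with formaldehyde and 11.08 with the mix. The AP-1 members fosl2 and junba lay at 3.38 and 3.19, and the forkhead factor foxo3b at 3.34. The glucocorticoid receptor co-chaperone fkbp5, named here after its values were seen, had levels of 7.16 with DMSO, 7.12 with benzene, 9.08 with toluene, 8.04 with formaldehyde and 11.65 with the mix. It was higher with toluene than on the other 3 arrays without the mix. Apart below were the antiproliferative gene btg2 at -1.27 and the repressor klf11a at -1.16.

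Genes of fasting and fat use were above in part. Of 35 genes, 15 were apart above and 1 below, with a median of 1.0, or 0.98 over all 43 on the array. All groups were held without food. The growth factor-binding gene igfbp1b had levels of 7.71 with DMSO, 7.57 with benzene, 6.79 with toluene, 7.69 with formaldehyde and 11.79 with the mix. Its duplicate igfbp1a lay at 3.43, the lipid droplet gene plin3 at 2.92 and the lipase inhibitor angptl4 at 2.81. The ketone-using enzyme oxct1a was apart below, at -1.12.

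Of 27 glycolysis genes, 12 were apart above and 2 below, with a median of 1.03, or 0.85 over all 31 on the array. The lactate dehydrogenase ldhbb lay at 3.19, the phosphofructokinase pfkpa at 2.91 and the glycogen phosphorylase pygmb at 2.76. The regulator pfkfb3, which makes the activator of phosphofructokinase, was second farthest above of all genes with a usual name, with levels of 5.74 with DMSO, 5.67 with benzene, 6.06 with toluene, 6.32 with formaldehyde and 10.86 with the mix.

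Enzymes that act on foreign compounds were apart on both sides. Of 16 genes past the filter, 9 were apart above and 2 below, with a median of 1.69, or 0.68 over all 32 on the array. The cytochrome P450 gene cyp3a65 had levels of 8.67 with DMSO, 8.67 with benzene, 8.71 with toluene, 7.86 with formaldehyde and 11.77 with the mix. The aryl hydrocarbon receptor gene ahr2 had 6.58 with DMSO, 6.88 with benzene, 7.0 with toluene, 6.23 with formaldehyde and 9.46 with the mix. A textbook target of that receptor, cyp1a, had 8.69 with DMSO, 8.97 with benzene, 9.0 with toluene, 8.7 with formaldehyde and 10.78 with the mix. For ahr2 and cyp1a, each single compound lay less than 1 unit from DMSO, and the mix lay above all 4 arrays.

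For the 6 members of the foreign compound and aldehyde lists that differed from DMSO by at least 1 unit with any single compound, the 4 differences from DMSO were as follows. These share the DMSO array. The quinone reductase nqo1 differed by 1.51 with benzene, 1.07 with toluene, 0.07 with formaldehyde and 2.53 with the mix. For mthfd2, a mitochondrial folate enzyme of 1-carbon metabolism, the differences were 0.1 with benzene, 1.58 with toluene, 0.03 with formaldehyde and 3.23 with the mix. For both, the mix difference was larger than that with any single compound. The alcohol dehydrogenase adh8b differed by 0.98 with benzene, 1.11 with toluene, 1.35 with formaldehyde and 2.28 with the mix. The P450 gene cyp2x7 differed by 0.8 with benzene, 0.92 with toluene, 1.18 with formaldehyde and -1.91 with the mix, so the mix lay on the opposite side of DMSO from the single compounds. The same held for cyp2k6 with formaldehyde, with -0.14 with benzene, 0.21 with toluene, 1.98 with formaldehyde and -1.1 with the mix. The aldehyde dehydrogenase aldh8a1 differed by -1.5 with benzene, -0.39 with toluene, -0.24 with formaldehyde and 0.72 with the mix.

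Of 23 alcohol and aldehyde dehydrogenases and related enzymes, 6 were apart below, near the background share, and 2 above, under it. Below were the thymidylate synthase tyms at -3.01, the proline-making aldh18a1 at -2.17, aldh9a1b at -1.94, the aldo-keto reductase akr1a1b at -1.6 and the mitochondrial aldh2.2 at -1.22. Above were dhrs1, of the short-chain dehydrogenase family, at 1.87 and mthfd2 at 1.65. The median, -0.2, changed sign with quantile or loess normalization and against DMSO alone.

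Both antioxidant lists were over the background share above and under it below. Of 26 Nrf2 and oxidative stress genes, 9 were apart above and 0 below, with a median of 0.41. The selenium carrier selenop2 had levels of 5.52 with DMSO, 7.45 with benzene, 5.94 with toluene, 6.48 with formaldehyde and 11.39 with the mix. The peroxiredoxin prdx5 had 8.19 to 9.89 on the other 4 arrays and 12.53 with the mix. The factor nfe2l2a, which encodes Nrf2, had 6.6 to 7.55 on the other 4 arrays and 9.96 with the mix, and the thioredoxin txnb lay at 2.53. Of 19 glutathione genes, 6 were apart above and 2 below. The glutathione peroxidase gpx1a lay at 2.35 and the transferase gstk1 at 2.33, while the transferase gstm.1 lay at -1.64 and the glutaredoxin glrx5 at -1.36.

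Of 31 heat shock chaperones, 6 were apart above, near the background share, and 3 below, under it. The chaperone hsp90aa1.2 had levels of 5.95 to 6.79 on the other 4 arrays and 9.63 with the mix, and the small heat shock genes cryaba and hspb8 lay at 2.52 and 1.83. The co-chaperone dnajb1b lay at -2.28 and the heat shock factor hsf1 at -1.11. Of 22 circadian clock genes, 8 were apart above and 2 below. The repressors bhlhe41 and nfil3-6 lay at 2.83 and 2.66, and the core activator bmal1a, with levels of 8.59 to 8.74 on the other 4 arrays and 6.15 with the mix, was apart below. Of 20 apoptosis genes, 4 were below, led by birc5b, and 3 above, both under the background share. Those above were the pro-death genes bik at 2.53, diabloa at 2.25 and bada at 1.43. Of 15 sterol synthesis genes, 5 were below, near the background share, led by nsdhl at -2.62 and mvk at -2.31. Above, under the background share, were 2, msmo1 at 1.27 and insig1 at 1.000. The medians of these 4 lists lay between -0.19 and 0.49, and each, like those of the Nrf2 and glutathione lists, changed sign under at least 1 alternative.

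The lists of ribosomal proteins, the respiratory chain, the proteasome and translation factors had shares apart under the background on both sides. This did not hold for every list of genes that most cells use: of 99 splicing genes, 37 were apart below. Many ribosomal protein genes were among the 100 most abundant, where little room is left above. The part of this was not tested. Of 75 ribosomal protein genes, 5 were apart above and 1 below, both under the background share. The median was 0.57, beside -0.32 for all genes. The ribosomal genes farthest above were rpl5a at 1.25 and rpl22l1 at 1.23, and rpl7l1, a relative of rpl7, lay at -1.68. When the mix was lowered by 0.57 so that these genes had a median of 0, 3888 probe sets were apart below and 1460 above, so that 72.7% of those apart were below, against 54.6% in the values as deposited. With quantile normalization that share was 48.8%, with loess normalization 45.2% and with no level filter 49.7%, so the balance then turned to more probe sets above than below. With the mix lowered by 0.57, the median of all genes was -0.89. Of 78 respiratory chain genes, 13 were apart above and 0 below, both under the background share, with a median of 0.74. Farthest above were the cytochrome oxidase genes cox8a, with levels of 8.77 to 9.56 on the other 4 arrays and 12.05 with the mix, and cox4i1l at 2.49.

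In the proteasome list, 7 of 48 genes were apart above and 2 below, both under the background share. The 7 included the immunoproteasome subunits psmb8a, psmb9a and psmb12, at 2.43, and the activator gene psme1, at 2.11. The median of the list was 0.19. Of 54 translation factors, 7 were apart above and 7 below, both under the background share, with a median of 0.04. Below were pabpc1l, the poly(A)-binding protein of eggs, with 11.57 to 11.73 on the other 4 arrays and 5.63 with the mix, and eif4e1b, a cap-binding form of the germ line, at -4.63. Above were the elongation factor kinase eef2k at 3.46, eef1a1a at 2.23 and pabpc1b at 2.21.

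Some genes with related symbols lay on opposite sides. Such families were looked for after the values were seen and carry no test. Among groups of genes that share the root of the symbol, 33 had members at least 2 units outside on both sides. Some roots, such as tmem with 65 genes and znf with 38, are large groups by name only. With 30.6% of all genes apart below and 20.3% above, large groups can reach both sides, so this count is not read as a result. The maternal RNA decay gene btg4 had levels of 13.21 with DMSO, 13.36 with benzene, 13.19 with toluene, 13.72 with formaldehyde and 6.61 with the mix. The antiproliferative gene btg1 of the same family had 9.43 with DMSO, 9.74 with benzene, 9.59 with toluene, 9.47 with formaldehyde and 12.63 with the mix. In the same way, the autophagy gene map1lc3c lay at -6.63 and map1lc3a at 2.21. The symbol root slc spans many transporter families, and of its amino acid transporters slc7a1b lay at -6.75 and slc43a2a at 3.54. The poly(A)-binding genes pabpc1l and pabpc1b were among these families as well.

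Zebrafish keep many gene pairs, named a and b, from a genome duplication of the teleost ancestor. Of 382 pairs matched by symbol, both members were apart above in 51, both below in 36 and 1 on each side in 24, or 6.28%. Over all genes, 30.6% were apart below and 20.3% above, so unrelated genes also fall on opposite sides. The 24 pairs are therefore not read as a feature of duplicates. In 78 pairs 1 member was above and the other not apart, in 72 pairs 1 was below and the other not apart, and in 121 neither was. A symbol does not prove a duplicate: rtca and rtcb, counted here, encode unrelated enzymes of RNA ends.

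The widest gap was that of inka1, named for an inhibitor of the kinase PAK4. Its member inka1b had levels of 12.27 with DMSO, 12.3 with benzene, 12.23 with toluene, 12.57 with formaldehyde and 6.61 with the mix. The member inka1a had 4.85 with DMSO, 5.06 with benzene, 5.06 with toluene, 5.14 with formaldehyde and 7.39 with the mix. Next was mknk2, a kinase that acts on the cap-binding factor eIF4E, with mknk2a at -2.84 and mknk2b at 3.45. For the glycolytic enzyme triose phosphate isomerase, tpi1a had levels of 10.57 with DMSO, 10.05 with benzene, 10.03 with toluene, 10.03 with formaldehyde and 7.24 with the mix. Its partner tpi1b had 11.17 with DMSO, 11.24 with benzene, 11.57 with toluene, 11.62 with formaldehyde and 12.96 with the mix.

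**Figure D5:**
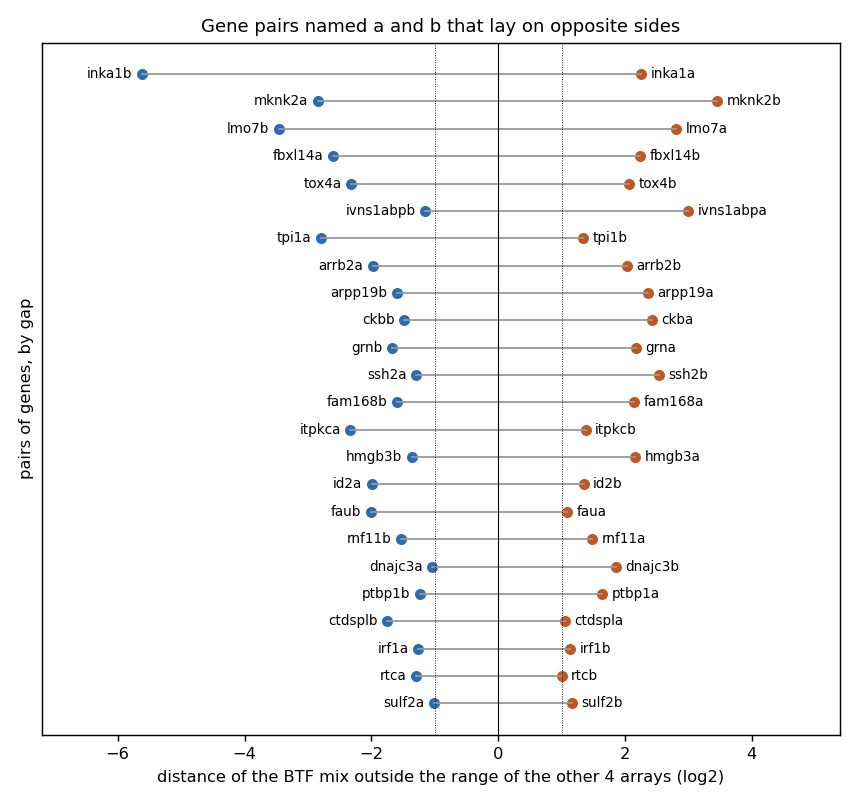
Distance of the mix outside the range of the other 4 arrays (log2) for the 24 pairs of genes named a and b whose members lay on opposite sides, ordered by the gap between them. Blue points are below the range and orange points above, dotted lines mark the threshold of 1 unit, and the widest pair, inka1b and inka1a, lies at -5.62 and 2.26.

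Few genes had probe sets apart on opposite sides, but many had some probe sets apart and others not. Of 864 genes with at least 2 probe sets past the filter, 191 had all below, 107 all above, 320 none apart and 236 some apart on 1 side only, while 10 had probe sets on both sides. Among these 10, named after their values were seen, were the claudin cldng and the calcium pump atp2a2a. For cldng, the brightest probe set lay at -6.38 and the other 3 between 1.05 and 2.01. For atp2a2a, 1 probe set lay at -2.13 and the other at 2.5. Probe sets of a symbol may read different transcripts or genes, which was not tested.

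A few genes of the 15 farthest above fell outside the lists. The lectin jac4 had levels of 3.97 with DMSO, 3.89 with benzene, 4.03 with toluene, 4.03 with formaldehyde and 8.45 with the mix. The growth factor-binding gene fgfbp2a had 5.93 with DMSO, 8.16 with benzene, 7.88 with toluene, 5.28 with formaldehyde and 12.26 with the mix. For this gene the 4 other arrays themselves spanned more than 2 units. The gene ntrnl2 lay at 4.09 and the glycosyltransferase gcnt4a at 3.96. The threshold cut through a continuum: just past it were rras, puf60b and fech below and chia.2, insig1 and golgb1 above. Just short of it were ctps1a, toporsb and paip1 below and tubb2, fgfr3 and fosab above, and the distances of all 12 rounded to 1.0 on the side given.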

How the data were processed

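Extracted total RNA was read on Affymetrix 3′ expression arrays, 1 per condition, and arrays were grouped by the treatment in the labels. The deposited table holds log2 values of the authors; the submitters' processing notes name Affymetrix Expression Console 1.1 with RMA and MAS5, and no source used here says what MAS5 was used for. The log base was taken from the range of the values, 3.15 to 15.04. Array medians lay between 6.98 and 7.06. RMA is meant to make the distributions of the arrays alike. A further quantile normalization still changed the counts, to 2429 below and 2551 above, so the distributions of the deposited values were not fully alike. Differences of abundant transcripts may be understated where the signal nears saturation, which was not tested.

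Of 15502 probe sets, 10795 had exactly 1 symbol in the platform annotation, while 135 had several and 4572 had none; 10711 symbols were updated through RefSeq's gene table (GRCz12tu). The probe set with the highest mean stood for a gene. The 46 lists, the markers and the mix itself were chosen with earlier results of these data known, and some genes are on several lists.

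Named genes are the 15 farthest on each side with a usual name, up to 5 per list farthest outside and up to 3 opposite to the list median, 3 just inside and 3 just outside the threshold per side, exposure genes at least 1 unit from DMSO, and the extremes of families. The text prints most of them; mhc1ufa, fkbp5, zpd, the gene pairs and the genes with probe sets on both sides were added after their values were seen. Sequences were not used here. Alternatives were quantile and cyclic loess normalization, a shift of the mix to ribosomal protein genes or to the mode of differences, other filters and distances, ranges without 1 array or DMSO alone, and other probe sets. The range rule was tested on simulated data. Python 3.11.15 with pandas 2.3.3 and numpy 2.4.6 and R 4.3.3 with limma 3.58.1 were used.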

Additional observations from a re-analysis of the deposited data

How the results depend on the processing

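Against 2712 probe sets apart below and 2257 above, a shift of the mix by 0.57 to the ribosomal protein genes gave 3888 and 1460, a filter at the 75th percentile gave 1975 and 1257, and a distance of 2 gave 1175 and 902. Quantile normalization gave 2429 and 2551, loess 1922 and 2333, no filter 2764 and 2801, and ranges without 1 of the other arrays 2753 to 2791 and 2287 to 2338, all within 1.5 times. Of the 30 lists with a median of at least 1 either way, the sign changed for 2: meiosis, from -1.73 to 0.07 with quantile normalization and 0.33 with no filter, and the testis and steroid list, from -1.23 to 0.42 with no filter. Over all 46 lists, 14 changed sign under at least 1 of 13 alternatives. The cause of these changes was not tested, except that the shift lowers every value of the mix and that stricter settings count fewer probe sets. No paired analysis was possible because each group had 1 array. With the mix, 53.4% of the probe sets apart below had levels under the filter level of 7.02, and where such a level lies near the background of the array its distance may be understated, which was not tested.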
